A study of Mus musculus with 4 samples.

Results

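The 8 genes described here, Wt1, Msln, Upk3b, Upk1b, Lrrn4, Muc16, Bnc1 and Gpm6a, mark the mesothelium. They were taken by name from the 31806 gene names on the array, and each has 1 probe, so they make up 8 of the 39397 probes with a usable spot on all 4 arrays and 17 of 43020 spots besides controls (the Upk1b probe is spotted 10 times). They were chosen by name, with their high signal on the DKO array already known, from the levels on these same arrays, so their excess on that array is described here and was not tested. The label mesothelial stands for what these genes mark in tissue, not for a cell type shown to be in the cultures.

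RNA came from mouse embryonic fibroblasts (MEFs), primary cells grown out of mid-gestation embryos, in logarithmic growth with no treatment given in the labels. All 4 cultures were from C57BL/6J mice. By their labels, the array G2KO holds CycG2-/- MEFs, with its own WT array of CycG2+/+ MEFs. The DKO array holds MEFs lacking both CycG1 and CycG2, again with its own WT array of the matching wild-type genotype. The knockouts are germline, and the CycG1 allele had its coding exons replaced by a neomycin cassette. CycG1 and CycG2 (genes Ccng1 and Ccng2) are cyclins that bind the phosphatase PP2A and act in the response to DNA damage. Each group is 1 culture on 1 single-color array. Whether embryos were pooled is not given in the sources used here.

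With 1 array per group there is no replicate check, so no test between genotypes was run and no p-value is given. A level is the processed Cy3 signal of a probe divided by the 75th percentile of all probes on that array. The error given with a level is the scanner software's own error of the spot. It covers the spot only, not the spread between cultures. A probe is called dim where the software did not mark it well above background. Against a dim probe the ratio was formed with the array's lowest signal that passed this mark, or with the probe's own signal if higher, and is written as a limit ("at least"). Levels of different probes cannot be set against each other, since each probe hybridises with its own efficiency. In RNA of a whole culture, a change in the number of cells of a type and a change in RNA per cell cannot be told apart.

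The mesothelium is the flat epithelial sheet that lines the pleural, peritoneal and pericardial cavities and covers the organs in them. It arises from mesoderm, and its cells carry keratins and surface mucins together with vimentin, which is otherwise typical of mesenchyme. In the embryo, mesothelial cells can lose their contacts and give rise to fibroblasts and smooth muscle, and in the heart the corresponding layer is the epicardium. Wt1, a zinc finger transcription factor first known from Wilms tumour, and Bnc1 (basonuclin 1), another zinc finger protein, are nuclear. Msln (mesothelin) is a surface glycoprotein and Muc16 (the CA125 antigen) a very large mucin that binds it. Upk3b and Upk1b are uroplakins, the latter a tetraspanin, named for the plaques of the bladder lining. Lrrn4 is a membrane protein with leucine-rich repeats, and Gpm6a is a membrane glycoprotein of the proteolipid family best known from neurons.

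The values below rest on single probes of 60 bases. The first 30 bases of each are shown from 5′ to 3′, so that the transcript that was read can be found, and all are in lower case because no base is singled out.
Wt1: ggtattagctgcatcactgtgtggatgtca
Msln: tgggtaccaggggtcattgccaaagtttga
Upk3b: tcaccaagtgtactggttagagagtgtaaa
Upk1b: ctatataagacagaaagtttggagaatgga
Lrrn4: ttatcaaagctgaacctgaatatgaatcac
Muc16: taccttccagtgatggctcttccctagcag
Bnc1: tgcagctttaaaagaagtggattttgtatt
Gpm6a: tcgtgtttgttttaaccttgactctctttt

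In the mouse build mm9, as the files give positions, the probe of Wt1 lies at chr2:105013656-105013715 on the plus strand and that of Lrrn4 at chr2:132694490-132694549 on the minus strand. The probes of Upk3b (chr5:136520522-136520581) and Gpm6a (chr8:56145539-56145598) are on the plus strand. Those of Msln (chr17:25885569-25885628), Upk1b (chr16:38773859-38773918), Muc16 (chr9:18299899-18299958) and Bnc1 (chr7:89111978-89112037) are on the minus strand. Exon and UTR positions in mm9 were not analysed here. Of the 8 probes, 7 carry a transcript identifier found in a RefSeq table of assembly GRCm38.p6. The exception, Muc16, carries a predicted transcript, so its name rests on the array design. The GC content of the full probes ran from 35% to 45%, with a median of 35.8%, beside a median of 41.7% over all 39429 probe sequences.

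Across the arrays, between 65.0% and 72.2% of probes were well above background, with the highest share on the DKO array and the lowest on its WT, and 0 spots were saturated. The 4 arrays share 1 slide and 1 scan. The targeted gene Ccng1 was dim on the DKO array, at a level of 0.00685, and well above background on the others, at 1.66 on its WT, 1.98 on the array labelled G2KO and 9.45 on that array's WT. The probe of Ccng2 read between 0.0619 and 0.104 on all 4 arrays and does not separate the labels. Whether it lies in the deleted part is not given in the sources used here. The Y-linked Ddx3y was dim on the array labelled WT of G2KO alone, and Xist, transcribed from the inactive X chromosome, was well above background there alone. The gene list of the study gives Xist as higher in G2KO, opposite to the direction found with the sample labels. It also gives Gpm6b as higher and Pdgfra as lower in G2KO. Here their log2 ratios of the array labelled G2KO to its WT were -5.97 and at least 7.93. Whether these arrays were exchanged was not tested. They are named by their labels throughout, and directions between them rest on those labels. Of the genes that define fibroblasts, the collagen genes Col1a1 and Col1a2 and the intermediate filament gene Vim were read on all 4 arrays, whereas Pdgfra, Lum and Fap were dim on the array labelled WT of G2KO.

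The DKO array carried signal for all 8 mesothelial marker genes. On each of the other 3 arrays, 2 of the 8 were well above background, and 5 of the 8 (Wt1, Upk3b, Upk1b, Lrrn4 and Gpm6a) were so on the DKO array alone. Over all genes measured on at least 1 array, 5.81% were well above background on the DKO array alone. The level on the DKO array exceeded that on every other array for each of the 8 genes.

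**Figure D1:**
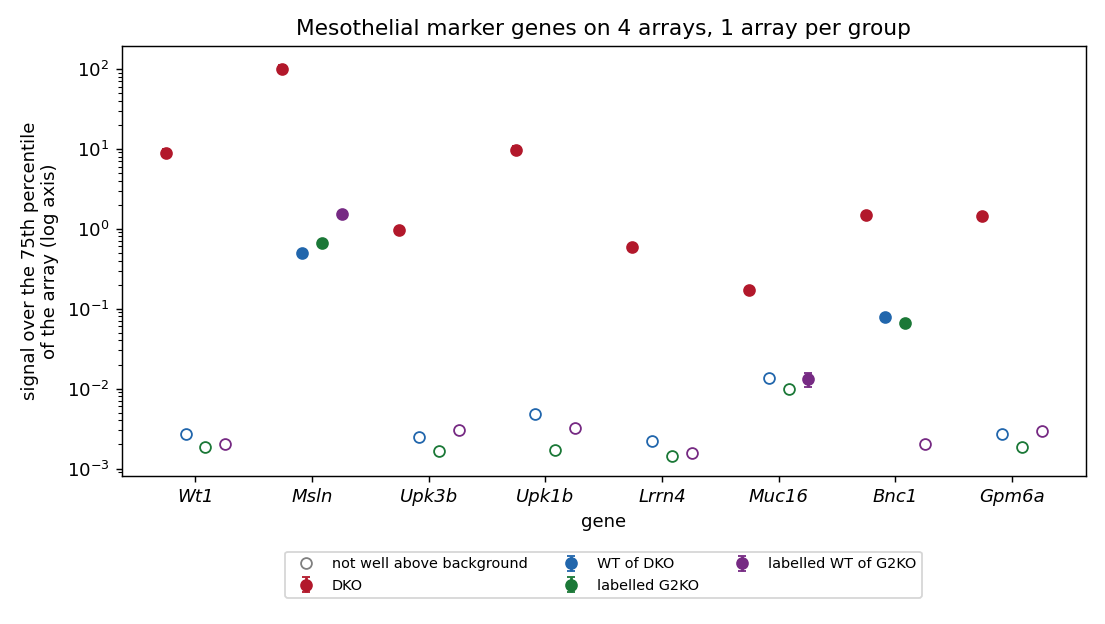
Level of each gene (signal over the 75th percentile of the array, log axis) on the 4 arrays, 1 point per array. Filled points are well above background and carry the spot error, which is mostly smaller than the point; open points are dim. The DKO point is the highest for all 8 genes, and for 5 of them it is the only filled one.

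Wt1, the transcription factor, had a level of 8.96 ± 0.896 (spot error) on the DKO array. It was dim on the other 3 arrays, at 0.00273 on the WT of DKO, 0.00187 on the array labelled G2KO and 0.00203 on that array's WT. The spot error of each of these dim values was 99.6% of the value, so they have no order among themselves. Wt1 was at least 874-fold higher on the DKO array than on its WT, or at least 9.77 on the log2 scale.

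Bnc1, the zinc finger gene, was also highest on the DKO array, at 1.47 ± 0.147. Unlike Wt1 it was measured on both the WT of DKO, at 0.0782 ± 0.00827, and the array labelled G2KO, at 0.0658 ± 0.00684. It was dim on the array labelled WT of G2KO, at 0.00204. The excess of the DKO array over its WT was 18.7-fold, or 4.23 on the log2 scale, and over the array labelled G2KO it was 22.3-fold. Against the array labelled WT of G2KO it was at least 205-fold.

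Msln and Muc16, whose proteins bind each other on the cell surface, both kept the order with the DKO array first. Msln read 100.2 ± 10.0 on the DKO array, 0.492 ± 0.0492 on its WT, 0.664 ± 0.0664 on the array labelled G2KO and 1.52 ± 0.152 on the array labelled WT of G2KO. It is the only one of the 8 measured on all 4 arrays. Its excess on the DKO array was 204-fold over the WT of DKO and 66.0-fold over the array labelled WT of G2KO. Muc16 read 0.169 ± 0.0170 on the DKO array and 0.0130 ± 0.00268 on the array labelled WT of G2KO, where it was just well above background. It was dim on the WT of DKO, at 0.0137, and on the array labelled G2KO, at 0.00983. Muc16 was at least 12.3-fold higher on the DKO array than on its WT. With normexp background correction its log2 ratio was 1.95, below 4-fold. Its level on the array labelled WT of G2KO and its dim value on the WT of DKO differed by less than their spot errors.

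The uroplakin genes Upk1b and Upk3b were read on the DKO array alone. Upk1b had a level of 9.74 there and was dim at 0.00483 on the WT of DKO, 0.00173 on the array labelled G2KO and 0.00320 on that array's WT. The excess over the WT of DKO was at least 950.2-fold, or 9.89 on the log2 scale. Upk3b had a level of 0.956 ± 0.0956 on the DKO array and was dim elsewhere, between 0.00164 and 0.00302, which gives at least 93.3-fold over the WT of DKO.

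The 10 spots of the Upk1b probe give the spread within an array. On the DKO array they ran from 9.12 to 10.3 with a median of 9.71 and an SD of 0.393 (n = 10 spots), which is 4.03% of their mean. All 10 were well above background there. On the WT of DKO the 10 spots ran from 0.00332 to 0.00813 and 0 of them passed that mark. Of the array labelled G2KO and its WT, 9 spots each were used and 0 of 9 were well above background, while 1 spot each was marked as an outlier by the software and left out. The spots of the DKO array and those of the other arrays did not overlap. They are repeats of 1 probe within each array, so this says nothing of the spread between cultures.

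**Figure D2:**
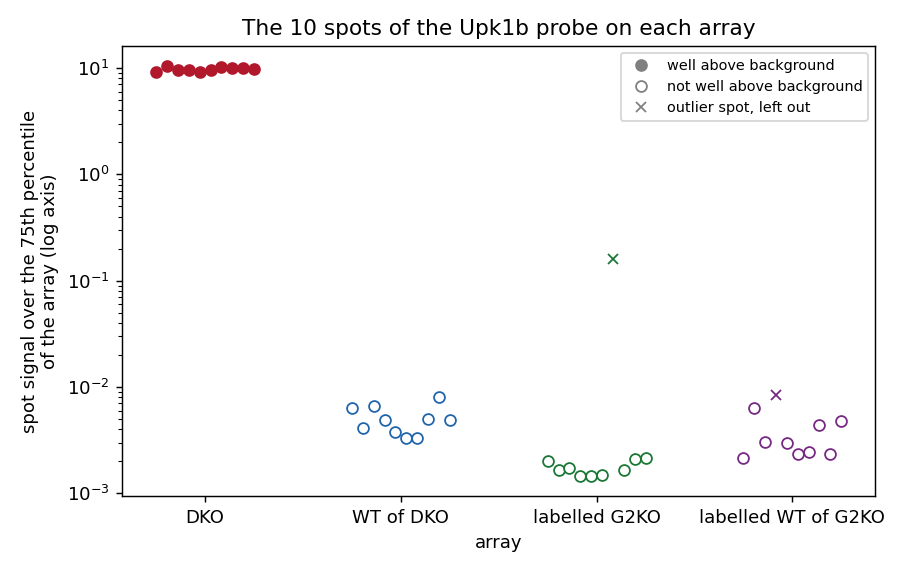
Signal of each spot of the Upk1b probe over the 75th percentile of its array (log axis), by array. Filled points are well above background, open points are dim and crosses are the outlier spots left out; the 10 DKO spots lie between 9.12 and 10.3, and the highest spot used on any other array is at 0.00813.

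Of the membrane genes outside these families, Lrrn4 had a level of 0.588 ± 0.0588 on the DKO array and was dim between 0.00143 and 0.00220 on the others. Lrrn4 thus exceeded the WT of DKO at least 57.3-fold. Gpm6a had a level of 1.43 ± 0.143 on the DKO array and was dim between 0.00185 and 0.00293 elsewhere. Its excess over the WT of DKO was at least 139-fold. The study's own list of changed genes holds Wt1 and Upk1b as higher in DKO, and Gpm6a, Lrrn4 and Upk1b as lower in G1KO, for which no array was analysed here. The list was drawn in part from these arrays, so the values of Wt1 and Upk1b here are no independent evidence of their direction.

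Against the WT of DKO, 8 of the 8 genes were at least 4-fold higher on the DKO array, where 3.93% of the 23543 genes compared were. The median log2 ratio or limit of the 8 was 6.83, ranging from 3.62 for Muc16 to 9.89 for Upk1b, beside a median of 0.01 over all genes. For 6 of the 8 the ratio is a limit, since the WT array was dim. Only Msln and Bnc1 were measured on both arrays. Since the genes were chosen for this excess, the count is set beside the share of all genes and nothing is read from it.

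The other 2 arrays give further values for the same DKO culture. Over the array labelled WT of G2KO, 8 of 8 were at least 4-fold higher (5.79% of all genes), with a median log2 ratio or limit of 7.35 against -0.02 over all genes. Over the array labelled G2KO, 8 of 8 were at least 4-fold higher (4.64% of all genes), with a median of 7.21 against 0.14. These comparisons share the DKO array and are not separate evidence. Among the 19466 genes well above background on all 4 arrays, the log2 ratios of DKO to its WT had an SD of 1.04.

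**Figure D3:**
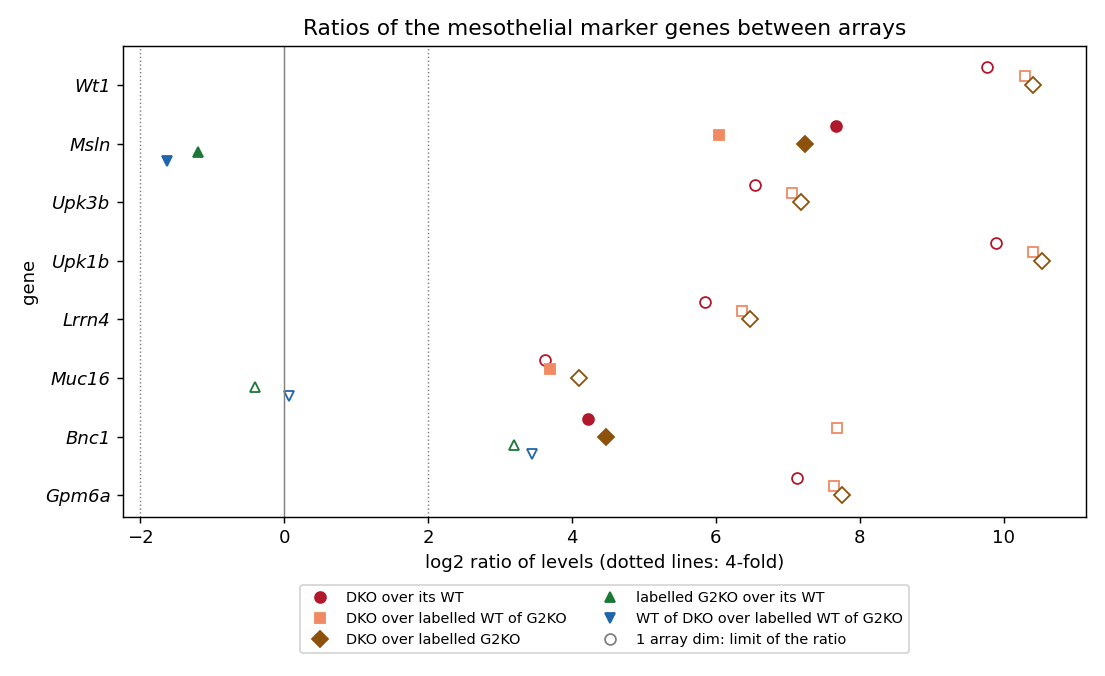
Log2 ratio of each gene in 5 comparisons of the 4 arrays; open symbols are limits where 1 of the 2 arrays was dim, and dotted lines mark 4-fold. All ratios with the DKO array lie at 3.62 or higher, while the comparisons without it hold 3 genes each, of which Bnc1 alone passes 4-fold.

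Without the DKO array, few of the genes could be compared. Between the array labelled G2KO and its WT, 3 of the 8 genes were compared and 1 differed at least 4-fold, beside 5.73% of all genes. That gene was Bnc1, with the array labelled G2KO at least 9.18-fold above the other. The count was 0 with normexp, at 10-fold, with probes measured on both arrays only, and against the other WT array. Msln was 2.29-fold lower there, with a log2 ratio of -1.19, and the log2 ratio of Muc16, which was dim there, was at most -0.41, a gap smaller than the spot errors of its levels together. The SD of log2 ratios in this comparison was 0.878 among genes measured on all arrays.

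The 2 cultures labelled WT differed from each other in a like way. Of the 3 genes compared, 1 differed at least 4-fold, beside 7.26% of all genes. Bnc1 was at least 10.9-fold higher on the WT of DKO than on the array labelled WT of G2KO. Here the count was 0 with normexp and with probes measured on both arrays only. Msln was 3.09-fold lower on the WT of DKO, with a log2 ratio of -1.63, where the SD over genes measured on all arrays was 1.02. Muc16, dim on the WT of DKO, had a log2 ratio of at most 0.07. The array labelled G2KO and the WT of DKO were closer in both genes that could be compared. Msln differed by 0.43 and Bnc1 by -0.25 on the log2 scale, and 0 of 2 reached 4-fold, beside 2.24% of all genes.

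To rank the genes without relying on any pairing of arrays, the level on the DKO array was set against the highest of the other 3 arrays. All 8 genes were at least 4-fold higher by this measure, beside 2.48% of 24492 genes. With dim levels at their limit, Upk1b ranked 2 and Wt1 ranked 3 among all genes, with margins of at least 9.89 and 9.77 on the log2 scale. Without the limit, the log2 ratio of DKO to its WT is 11.68 for Wt1 and 10.98 for Upk1b. Those ratios rest on dim values of the WT of DKO, so the order of the 2 genes is not settled. On the same basis Gpm6a ranked 18, Upk3b 33, Msln 44, Lrrn4 49, Bnc1 122 and Muc16 193. Of these, the margins of Msln and Bnc1 are measured against a signal well above background, and the ranks of the others rest on limits. For Msln the next highest array was that labelled WT of G2KO, with a margin of 6.04. For the other 7 genes it was the WT of DKO. Bnc1 was measured there, and Muc16 entered with its own dim signal. Wt1, Upk1b, Upk3b, Lrrn4 and Gpm6a stood at that array's background limit, which was the highest of the arrays.

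**Figure D4:**
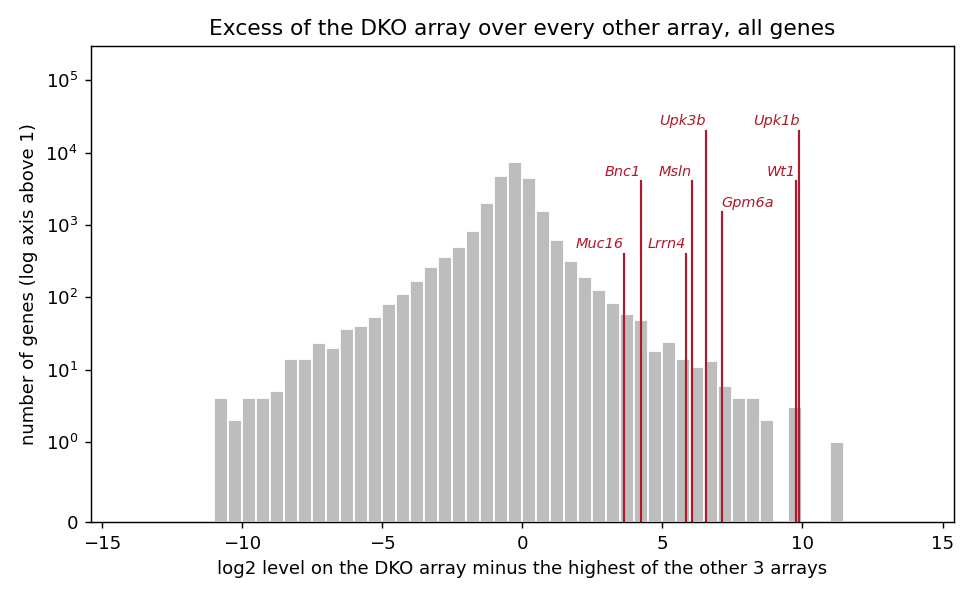
Number of genes (log axis above 1) by the log2 level on the DKO array minus the highest of the other 3 arrays, with dim levels set to their limit. Red lines mark the 8 mesothelial marker genes, from 3.62 for Muc16 to 9.89 for Upk1b, in the right tail of the 24492 genes.

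The genes outside the 8 with the largest margins show which transcripts had the same pattern over the 4 arrays. Ptgis, the prostacyclin synthase gene, had the largest margin when dim levels are at their limit, 11.42 on the log2 scale, with a level of 50.1 on the DKO array and at most 0.0183 elsewhere. Krt18, a keratin of simple epithelia, had a margin of 9.51, and Il33, a nuclear cytokine of barrier cells, one of 8.73. Gata4, a zinc finger factor of mesoderm and endoderm, had a margin of 8.39. Pon3, a lactonase gene, had a margin of 7.84. The others of the 10 were dim on the other 3 arrays, so their margins are limits. They were the homeobox genes Hoxb7 (at least 8.57), Hoxb4 (at least 8.22), Hoxb9 (at least 8.03) and Hoxb2 (at least 7.78), and Scel (at least 8.28), which encodes sciellin of stratified epithelia. The likeness rests on 4 arrays and on the excess of 1 of them.

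The other genes of mesothelium and epicardium did not all move with the 8. Of 27 listed, 25 could be compared between DKO and its WT, 10 were at least 4-fold higher (3.93% of all genes were) and 3 were at least 4-fold lower (3.91% of all genes were). The median log2 ratio of the list was 1.57. The higher genes include the keratins Krt18, at least 2406-fold higher, Krt8, at least 76.5-fold, and Krt19, 19.9-fold. They also include the transcription factors Gata4, 361-fold, and Gata6, at least 478-fold. Krt19 read 0.524 on the array labelled G2KO, so its log2 margin over the highest of the other 3 arrays was 1.19. Gata6 read 0.187 on the array labelled WT of G2KO, a margin of 4.71. By this margin, 9 of the list were at least 4-fold higher, beside 2.48% of all genes. Also higher were the sodium pump partner Nkain4, 55.0-fold, the adherens junction gene Cdh1, at least 24.1-fold, the membrane linker Ezr (ezrin), 15.5-fold, its binding partner Slc9a3r1, 15.3-fold, and the complement gene C3, 5.44-fold.

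On the other side was Rspo1, a Wnt agonist, 7.08-fold lower on the DKO array than on its WT. Also lower there were the binding protein gene Igfbp5, at least 15.1-fold, and Podxl (podocalyxin), at least 8.37-fold. Rspo1 was dim on the array labelled WT of G2KO, at 0.00272, below the 0.0195 of the DKO array. Igfbp5 and Podxl were lower on the DKO array than on that array too. Calb2 (calretinin), which is used in pathology as a mesothelial marker, and Tcf21, an epicardial factor, were dim on all 4 arrays. Aldh1a2, the retinoic acid synthesis enzyme of the epicardium, read 0.0118 on the DKO array and 0.0139 on its WT. Tbx18, an epicardial T-box factor, read 0.787 and 0.680. Pdpn (podoplanin) was 3.47-fold higher on the DKO array, below 4-fold. The RNA antisense to Wt1, Wt1os, was read on the DKO array alone, at 0.0405, at least 3.96 times the limit of its WT; it is listed on the array under an older name and was matched through RefSeq.

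The relatives of the 8 genes by sequence family were compared too. Of 16 relatives, 13 could be compared. On the DKO array 0 were at least 4-fold higher than on its WT (3.93% of all genes were). At least 4-fold lower was 1, the zinc finger gene Egr2, 9.40-fold (3.91% of all genes were). With 13 genes these counts are near the shares over all genes, and nothing is read from them. The list had a median log2 ratio of 0.06. The tetraspanin uroplakin Upk1a read 0.107 on the DKO array and 0.140 on its WT. The uroplakin genes Upk2 and Upk3a were just above background on the DKO array, at 0.0107 and 0.0119. The mucin Muc1 was 2.50-fold higher and the mesothelin-like gene Mslnl 1.83-fold. Bnc2, the closest relative of Bnc1, read 0.177 and 0.216. Gpm6b, the relative of Gpm6a, was 3.82-fold lower on the DKO array than on its WT and read 8.92 on the array labelled WT of G2KO, far above the other 3 arrays.

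Because these genes are also used in other tissues, markers of those tissues were read in the same way. Over all genes compared, 3.93% were at least 4-fold higher on the DKO array than on its WT and 3.91% at least 4-fold lower. Each list is short, and its counts were not tested against these shares. Among 10 urothelial genes, 7 were compared and 1 was at least 4-fold higher, Grhl3, a transcription factor of barrier epithelia, at least 4.04-fold. Krt20 was dim on all 4 arrays, and Foxa1 and Elf3 were dim on all but the array labelled WT of G2KO. Trp63 read 1.91 on the DKO array and 1.68 on its WT, and Pparg 1.54 and 0.972. Among 8 podocyte genes, 7 were compared, 0 were higher and 2 lower, Foxc2, 22.6-fold, and Podxl. Foxc2 read 0.0557 on the DKO array, beside 0.0461 on the array labelled WT of G2KO. The slit diaphragm gene Nphs1 read 0.0131 on the DKO array, beside a dim 0.0126 on its WT. Among 9 gonadal somatic genes, 7 were compared. Gata4 was higher, and Sox9, 6.22-fold, and Lhx9, 9.85-fold, were lower. Sox9 read 0.224 on the DKO array, above the 0.0439 of the array labelled WT of G2KO, whereas Lhx9 was lower than there too. Amh and Fshr were dim on all 4 arrays. Emx2 read 0.469 on the DKO array and 0.326 on its WT, and Nr5a1 0.190 and 0.197. Among 8 genes of metanephric mesenchyme, 6 were compared and 1 was higher, Six2, 12.5-fold, while Pax2 read 0.0312 and 0.0175. Among 8 neuronal genes, where Gpm6a is also used, 0 were higher and 3 lower, Tubb3, 4.49-fold, Map2, 26.6-fold, and Stmn2, at least 27.2-fold. Tubb3 read 0.167 on the DKO array, beside 0.188 on the array labelled WT of G2KO, and Stmn2 was dim on both. Map2 was lower than on that array too. Snap25 read 12.2 on the DKO array and 18.1 on its WT, and Syp 2.03 and 1.29.

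The general epithelial genes split. Of 12 listed, 10 were compared. At least 4-fold higher on the DKO array than on its WT were 4 (3.93% of all genes were). They were Krt8, Krt18, Krt19 and Cdh1, which the mesothelial and epicardial list also holds. Over the highest of the other 3 arrays, 3 of them were at least 4-fold higher, all but Krt19, beside 2.48% of all genes. Epcam, the surface marker of most epithelia, and Ocln (occludin) were dim on all 4 arrays. Esrp1, an epithelial splicing factor, read 0.0943 on the DKO array and 0.0876 on its WT, and Cldn7 read 0.105 and 0.102. The summed level of the list was 27.3 on the DKO array and between 0.350 and 0.827 on the others, and the Krt18 probe alone read 24.7 on the DKO array.

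**Figure D5:**
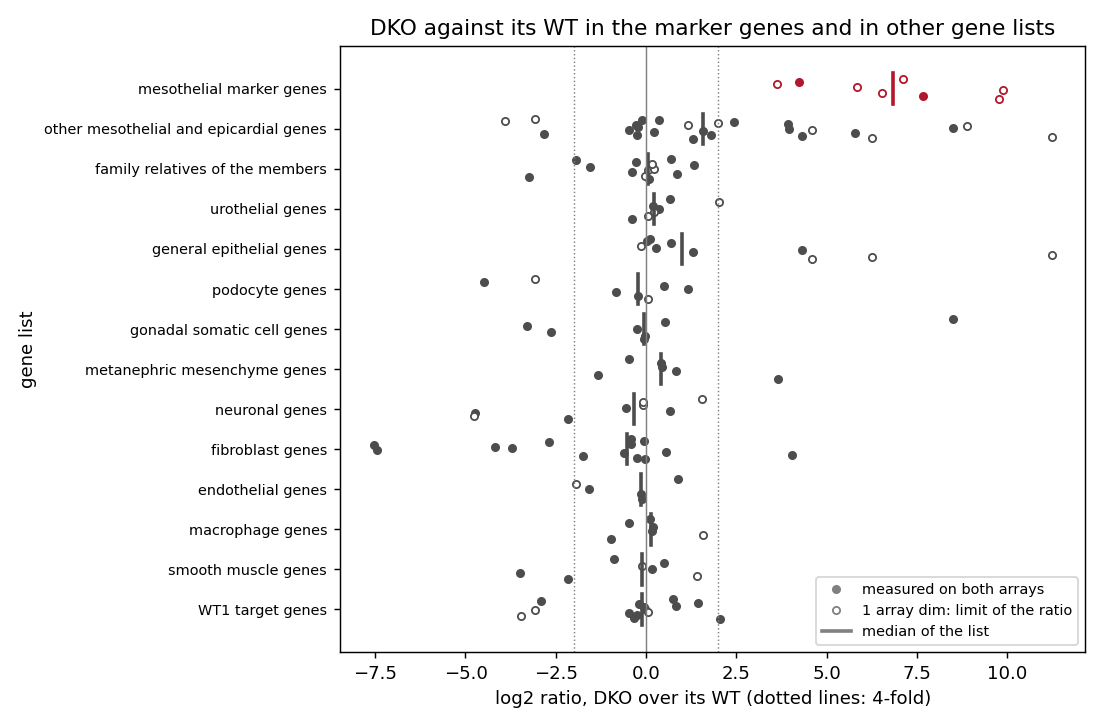
Log2 ratio of DKO to its WT for the genes of each list, 1 point per gene; open points are limits, bars are medians and dotted lines mark 4-fold. The 8 mesothelial marker genes have a median of 6.83, the other mesothelial and epicardial genes 1.57, and the fibroblast genes -0.51, with some genes in more than 1 list.

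The fibroblast genes did not move together on the DKO array. All 14 listed were well above background there, and 8 differed from the WT of DKO by less than 4-fold. The collagen gene Col1a1 read 41.0 on the DKO array and 41.9 on its WT. Vim, which mesothelial cells also carry, read 60.5 and 62.5. Of the 14, only decorin (Dcn), a matrix proteoglycan, was at least 4-fold higher on the DKO array, 16.6-fold, beside 3.93% of all genes. At least 4-fold lower than on the WT of DKO were 5 genes, beside 3.91% of all genes. They were the receptors Pdgfra, 176-fold, and Pdgfrb, 13.1-fold, the surface protein Thy1, 18.0-fold, the matrix protein Postn, 186-fold, and S100a4, 6.40-fold. Pdgfra and Thy1 were not lower than on the array labelled WT of G2KO. There they read a dim 0.00223 and 0.461, beside 0.0296 and 3.42 on the DKO array. Pdgfrb, Postn and S100a4 were lower than on that array too. The summed level of the fibroblast genes was 426 on the DKO array and between 339.6 and 583 on the others. This sum rests on the brightest probes, such as Col1a2 at 142 on the DKO array, and does not measure fibroblast content. The smooth muscle genes Acta2, 4.51-fold, and Tagln, 11.3-fold, were lower on the DKO array among 7 compared (3.91% of all genes were). Of 5 endothelial and 6 macrophage genes compared, 0 had a ratio or limit of 4-fold; the nearest was Erg, dim on the DKO array and at least 3.84-fold lower there. The endothelial genes Tie1 and Emcn were dim on all 4 arrays. The part of any other cell type in the levels of the 8 genes was not tested.

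Wt1 is itself a transcription factor, so 14 genes described as its targets were read. All 14 were compared between DKO and its WT, with a median log2 ratio of -0.12. Of them, 1 was at least 4-fold higher (3.93% of all genes were) and 3 were at least 4-fold lower (3.91% of all genes were). The higher one was Areg (amphiregulin), 4.10-fold, though its level of 0.0472 on the DKO array lay below the 0.463 of the array labelled WT of G2KO. The lower ones were the integrin gene Itga4, at least 11.0-fold, Podxl, and Snai1, 7.56-fold, a repressor of Cdh1. Bmper, a BMP-binding protein, was 2.71-fold higher, and Spry1, an inhibitor of receptor kinase signalling, was 1.25-fold lower.

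Promoter sequence was at hand for 5 of the 8 genes, with 6 start sites because Gpm6a has more than 1. Shown are the 250 bases before a start site from RefSeq on GRCm38.p6, each on the strand of its gene, for the 4 genes in which GGAATG or GGGCGG was found. For Gpm6a the first listed start site is shown. Capitals mark GGAATG (bound by TEAD factors) and GGGCGG (the GC box) on either strand, so that their reverse complements are in capitals too.
Lrrn4 (chr2:132880863-132881112, minus strand): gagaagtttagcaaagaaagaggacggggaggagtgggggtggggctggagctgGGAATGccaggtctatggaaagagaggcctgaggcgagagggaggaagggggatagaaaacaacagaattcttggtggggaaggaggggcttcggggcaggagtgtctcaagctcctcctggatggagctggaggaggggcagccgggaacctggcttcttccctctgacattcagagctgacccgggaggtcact
Upk3b (chr5:136038246-136038495, plus strand): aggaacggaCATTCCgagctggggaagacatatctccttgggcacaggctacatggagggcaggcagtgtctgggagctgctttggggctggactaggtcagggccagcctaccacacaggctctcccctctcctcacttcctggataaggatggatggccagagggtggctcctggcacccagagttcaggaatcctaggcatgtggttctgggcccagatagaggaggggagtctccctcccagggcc
Gpm6a (chr8:54779184-54779433, plus strand): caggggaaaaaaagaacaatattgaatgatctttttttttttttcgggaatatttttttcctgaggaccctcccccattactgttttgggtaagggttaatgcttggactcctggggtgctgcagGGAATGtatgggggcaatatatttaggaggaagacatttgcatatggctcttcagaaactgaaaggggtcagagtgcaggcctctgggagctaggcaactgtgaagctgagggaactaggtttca
Bnc1 (chr7:81992300-81992549, minus strand): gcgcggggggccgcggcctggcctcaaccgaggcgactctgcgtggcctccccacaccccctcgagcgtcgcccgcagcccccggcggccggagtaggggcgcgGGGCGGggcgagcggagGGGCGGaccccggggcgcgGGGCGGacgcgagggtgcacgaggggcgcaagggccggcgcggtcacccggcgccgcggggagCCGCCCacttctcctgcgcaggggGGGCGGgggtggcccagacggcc

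The promoters at hand differed in base composition, also among the genes read on the DKO array alone. Of those genes, Wt1 and Upk1b had no promoter sequence at hand. That of Bnc1 had a GC content of 83.6% with 39 CpG, and those of Lrrn4 and Upk3b had 59.2% and 60.8% with 5 and 2 CpG. The upstream stretches of Gpm6a had 44.4% and 33.6%, and that of Muc16 46.4%, beside a median of 52.4% and 6 CpG over 32851 mouse promoters. GGAATG was found in 3 of the 6 promoters and in 12.6% of all, and GGGCGG in 1 of 6 and in 32.7%. TATAAA was found in 1 of 6, the second of Gpm6a, and in 12.4%. The motif GCGNGGGCG, bound by EGR factors and WT1, and AGATAA, bound by GATA factors, were in 0 of 6, beside 4.70% and 9.99% of all. These matches describe letters in the window and say nothing of binding.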

How the data were processed

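The samples were 4 MEF cultures, 1 array per group. Per the labels, total RNA was labelled with Cy3 from an oligo-dT primer and hybridised to single-color Agilent arrays, whereas the study's methods describe dye-swapped arrays for the G2KO comparison. The authors made the deposited intensity values with Agilent's Feature Extraction software (the headers name version 10.7.3.1, the submitters' processing notes 10.5.1.1), which removed spatial and multiplicative trends within an array, gave dim spots a surrogate signal and scaled nothing between arrays. The deposited p-value of each spot is the same software's test against background, from which its mark of being well above background is in part set. The deposited value table holds the same intensity (largest log2 difference 0).

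From these, control spots and spots marked as outliers (107 to 140 per array) were left out, spots of a probe were averaged, and the processed signal was divided by the array's 75th percentile (signals of 1586 to 2234) and taken as log2. A gene is its probe with the highest mean log2 signal. A probe counted as well above background where over 0.5 of its spots were, and was compared where this held on at least 1 of the 2 arrays. Dim levels were raised to the array's lowest signal well above background (levels of 0.00660 to 0.0102) unless their own was higher. A 4-fold ratio was the threshold. The number of arrays limits the precision; no test was run.

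The 8 genes and the 13 other lists were chosen with earlier results of these data known. The genes named are the 8, those of the lists at least 4-fold different in DKO, defining markers, and the 10 with the largest excess on the DKO array. A few listed genes named outside that rule were chosen after their values were seen. Python 3.11.15, numpy 2.4.6, pandas 2.3.3, R 4.3.3 and limma 3.58.1 (normexp alternative only) were used. The calculation of ratios was tested on simulated data. RefSeq tables of GRCm38.p6 gave names and promoters only.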

Additional observations from a re-analysis of the deposited data

Results flagged for a closer look

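By the labels, the difference of DKO from its WT and that of the array labelled G2KO from its WT ran in opposite directions for Msln and Muc16. For Msln the log2 ratios were 7.67 and -1.19, which are 8.87 apart. For Muc16 they were at least 3.62 and at most -0.41, at least 4.03 apart. The 2 levels of Muc16 behind the second ratio differed by less than their spot errors together. With 1 array per group these differences were not tested, and the direction of the second comparison rests on labels that the study's list goes against. With that direction turned, Msln has log2 ratios of 7.67 and 1.19, which run the same way and are 6.48 apart, and Muc16 has at least 3.62 and at least 0.41, also the same way.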

How the results depend on the processing

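No paired analysis was possible because each group has 1 array, and for the same reason no replicate could be left out in turn. The count of 8 genes at least 4-fold higher on the DKO array than on its WT was the same with no scaling, scaling to the median, quantile normalization, the deposited table, the median over probes, no floor for dim probes, no filter on dim probes, outlier spots kept, thresholds of 2-fold and 10-fold, and either the WT of G2KO or the mean of both WT arrays as the control. With normexp background correction (offset 50) it was 7, Muc16 having a log2 ratio of 1.95, and with probes well above background on both arrays only, it was 2, since the other 6 were then not compared. Several of the alternatives that left the count at 8 could not have lowered it. Each gene has 1 probe and all 8 were already compared, so the median over probes and no filter repeat the main values. Outlier spots kept do so too, since the 8 probes had 0 outlier spots on the DKO array and its WT. The deposited table repeats no scaling, and a 2-fold threshold or no floor cannot lower the count. The median log2 ratio of 6.83 became 4.70 with normexp and 8.33 with no floor. The count over the highest of the other 3 arrays fell from 8 to 1, Msln, when only probes measured on all 4 arrays entered, and was 7 with normexp. Leaving out each of the other 3 arrays in turn, an alternative chosen after seeing the data, cannot lower this count by its construction and says nothing of stability. Between the array labelled G2KO and its WT, the count of 1 became 0 with normexp, with probes measured on both arrays only, at 10-fold and against the other WT array, and 2 at 2-fold. Between the arrays labelled WT, it became 0 with normexp and with probes measured on both arrays only, and 2 at 2-fold. Except where fewer genes were compared or the threshold itself was moved, the cause of these changes was not tested. Of the log2 ratios of single genes under the alternatives, 14 moved by more than the SD between the arrays labelled WT, 76 by less, and 0 changed direction. The 76 include alternatives that repeat the main values by construction, so this tally is no measure of stability. Signal near background limits Muc16 and every dim level.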
